A study of Homo sapiens with 8 samples.

Results

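Notch signalling was examined through 10 genes of its core in CFPAC-1 cells, a long-established human line of pancreatic ductal cancer. They are the receptors NOTCH1, NOTCH2 and NOTCH3, the ligands JAG1, JAG2 and DLL1, and the targets HES1, HES4, HEY1 and NRARP. The 10 genes were found by symbol among the 58870 genes of the deposited count table, each as 1 row. Bulk RNA was sequenced from 4 samples with an empty vector and from 4 samples with an ADRA2A transgene, the latter overexpressing the alpha-2A adrenergic receptor. All 8 received no drug and grew for 72 h in IMDM with 10% serum and 1% antibiotics. The labels name neither the promoter of the transgene nor whether the cells were a clone or a pool, and they do not say whether samples within a group were grown as separate cultures. The p-values therefore measure the spread between these samples, which may be technical.

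In the Notch pathway a ligand on one cell binds a receptor on its neighbour, the receptor is cut within the membrane by gamma-secretase, and the freed intracellular domain enters the nucleus. There it joins the DNA-binding protein RBPJ and a Mastermind coactivator to switch on target genes, many of them HES and HEY repressors of the basic helix-loop-helix family. In the pancreas Notch activity is known for holding progenitors back from endocrine and acinar fates and for keeping duct-like cells, where HES1 and SOX9 are expressed.

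The libraries held between 14427040 and 17528910 counts. ADRA2A had 0 counts in all 4 empty-vector libraries and 112, 142, 154 and 172 counts in ADRA2A replicates 1 to 4, so the transgene matched the labels. Of 9 ductal epithelial markers, 8 passed the filter on low counts, and their summed level lay between 11900 and 12500 counts-per-million (CPM) in the empty-vector libraries and between 11600 and 12700 CPM in the ADRA2A libraries. The exception was CFTR, the duct chloride channel gene, at 0.25 to 1.16 CPM. Keratins carried most of that sum. Among the 8, 3 rose, KRT19 and EPCAM among them, and 4 fell, namely KRT7, CDH1, SOX9 and KRT18. Of all genes tested, 21.6% rose and 21.1% fell at an edgeR adjusted p under 0.05. SOX9 went from 131 ± 3.31 to 113 ± 2.74 CPM (SD, n = 4 each; log2 fold change -0.21, edgeR adjusted p = 1.61e-04). None of the 7 acinar or 6 endocrine markers passed, and INS, GCG, SST, PPY and CHGA had 0 counts in all libraries. The 8 fibroblast markers summed to between 2.40 and 3.37 CPM in the empty-vector and between 1.66 and 2.29 CPM in the ADRA2A libraries, and the 6 endothelial markers to between 2.23 and 2.92 and between 2.97 and 3.67 CPM. The 7 immune markers summed to between 121 and 133 and between 199 and 212 CPM, nearly all of it from CD68 and LYZ, while CD3E and NKG7 had 0 counts and PTPRC reached at most 0.271 CPM. The part of these markers in the Notch results was not tested.

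All 10 genes passed the filter and entered the test. In edgeR's quasi-likelihood test with a threshold of 0.05 on the adjusted p-value, the transgene cells had 2 of them higher and 4 lower, and 4 did not pass. Of all 14785 genes tested, 42.7% passed, 21.6% as higher and 21.1% as lower. For 5 of the 10 genes every library of one group lay above every library of the other, against 39.2% of all genes tested. With 10 genes, counts of 6 and 5 do not set the list apart from these shares. Their median log2 fold change was 0.00, as for all genes tested, and their median absolute log2 fold change was 0.40 against 0.18 for all. The genes were chosen with earlier results of these data known, and this difference was not tested. HEY1, at 0.56 with 7 to 20 counts per library, was among the larger values though not called. The changes went in both directions within the receptors, so the genes are described one by one, by role.

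**Figure D1:**
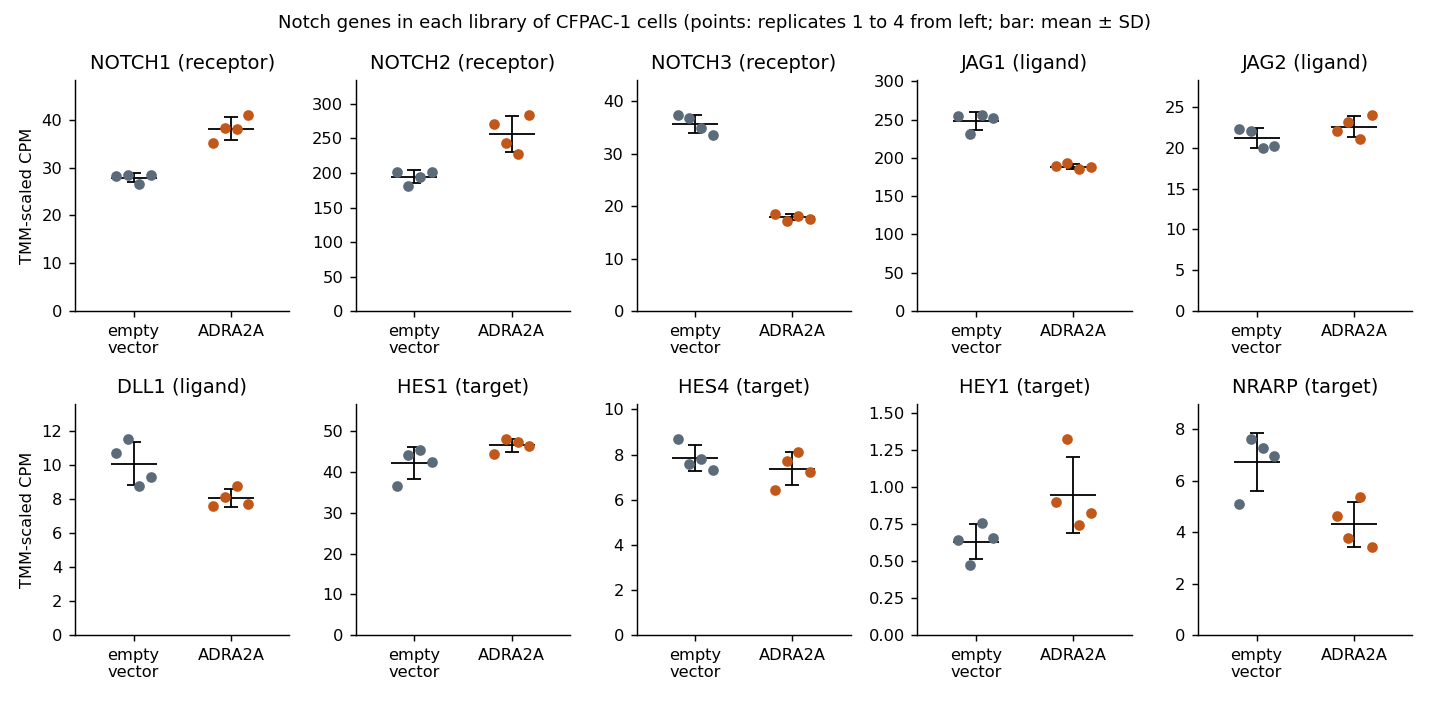
Level of each Notch gene in TMM-scaled CPM (linear axis from 0) in the 4 empty-vector and 4 ADRA2A libraries, with points for replicates 1 to 4 and bars for mean ± SD. NOTCH3 is separated most clearly, at 33.6 to 37.4 CPM against 17.2 to 18.5 CPM, while HES1, HES4, JAG2, HEY1 and NRARP overlap between the groups.

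The 3 receptors did not move together. NOTCH3, a receptor best known from vascular smooth muscle and found in several carcinomas, fell the most. It is a gene of 33 exons on the minus strand at chr19:15159038-15200995 (GRCh38). NOTCH3 was at 37.4, 36.8, 34.9 and 33.6 CPM in empty-vector replicates 1 to 4 and at 18.5, 17.2, 18.2 and 17.6 CPM in ADRA2A replicates 1 to 4. Every ADRA2A library lay well below every empty-vector library, and the spread within each group was small. Its mean level of 35.7 ± 1.77 CPM in the empty-vector cells became 17.9 ± 0.598 CPM (SD, n = 4 each), which is 1.99-fold lower (log2 fold change -1.0 ± 0.06, SE; edgeR adjusted p = 1.75e-10). Of all genes tested, 95.2% had an absolute log2 fold change no larger than that of NOTCH3. In bulk RNA, fewer cells expressing a gene and less of its RNA per cell cannot be told apart, here and for the other genes.

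NOTCH1 (chr9:136494433-136546048, minus strand, 34 exons), a receptor known for its part in T-cell development and leukaemia, went the other way. It was at 28.2, 28.4, 26.5 and 28.5 CPM in the empty-vector replicates and at 35.1, 38.2, 38.1 and 41.0 CPM in the ADRA2A replicates. All ADRA2A libraries were above all empty-vector libraries. NOTCH1 rose from 27.9 ± 0.949 to 38.1 ± 2.44 CPM (SD, n = 4 each), or 1.37-fold (log2 fold change 0.45 ± 0.06, SE; edgeR adjusted p = 5.12e-06).

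NOTCH2 (chr1:119911553-120100779, minus strand, 34 exons) was the most abundant receptor. Its level was 201, 181, 194 and 201 CPM in the empty-vector replicates and 271, 243, 228 and 284 CPM in the ADRA2A replicates. The groups did not overlap, but the ADRA2A libraries differed more among themselves than the empty-vector libraries did. NOTCH2 rose 1.32-fold (log2 fold change 0.40 ± 0.06, SE; edgeR adjusted p = 7.32e-06). Its transcript is long, and ADRA2A replicates 4 and 1, where NOTCH2 was highest, were also the libraries where long transcripts in general were highest. Over the 875 tested genes with a main transcript of 8 to 12 kb, the median log2 level relative to the mean of the 8 libraries was 0.04, -0.02, -0.04 and 0.07 in ADRA2A replicates 1 to 4, and between -0.05 and 0.02 in the empty-vector libraries. The median log2 fold change of these long genes was 0.02. The part of transcript length in the NOTCH2 values was not tested.

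NOTCH2 has near-identical partial copies, the NOTCH2NL genes, with which the counting may divide reads. Of 4 copies in the table, NOTCH2NLA rose from 10.6 ± 1.83 to 13.3 ± 1.15 CPM (SD, n = 4 each; log2 fold change 0.34, edgeR adjusted p = 0.0192). The copy now named NOTCH2NLC rose from 5.84 ± 0.881 to 9.67 ± 0.609 CPM (SD, n = 4 each; log2 fold change 0.73, edgeR adjusted p = 5.92e-05). NOTCH2NLB had a log2 fold change of 0.43 and did not pass (edgeR adjusted p = 0.134), and NOTCH2NLR had 0 counts. Summed with these copies, NOTCH2 rose by 0.41 ± 0.05 on the log2 scale (SE; edgeR adjusted p = 1.79e-06), so the rise was as large with the copies included.

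Levels of different genes can be compared only per transcript length, and are given here as CPM per kb, using the mean length of the annotated transcripts of each gene. On that scale NOTCH2 made up 82.5% ± 1.08 of the sum of the 3 receptors in the empty-vector cells and 89.9% ± 0.895 in the ADRA2A cells (SD, n = 4 each). The share of NOTCH3 went from 13.5% ± 0.935 to 5.62% ± 0.542, and that of NOTCH1 from 3.98% ± 0.204 to 4.50% ± 0.449. With the longest transcript as the length, the share of NOTCH2 was 71.0% ± 1.43 and 79.0% ± 1.65, that of NOTCH3 17.2% ± 1.07 and 7.30% ± 0.644, and that of NOTCH1 11.8% ± 0.525 and 13.7% ± 1.22 (SD, n = 4 each). The sizes of the shares thus depended on the length, while NOTCH3 had the lower share in the ADRA2A cells with both. With the mean length NOTCH3 was above NOTCH1 in both groups. With the longest transcript, NOTCH3 was above NOTCH1 in the empty-vector cells, at 4.11 against 2.83 CPM per kb, and below it in the ADRA2A cells, at 2.06 against 3.87 CPM per kb. The order of these receptors in the ADRA2A cells therefore depended on the length used. The mean lengths of NOTCH1, NOTCH2 and NOTCH3 were 6628, 2219 and 2494 bases. Their main transcripts have 9568, 11425 and 8680 bases, and their longest 9855, 11425 and 8680. The longest transcript is thus the closer measure of the main transcript for all 3 receptors, and the mean length raises NOTCH2 and NOTCH3 most.

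**Figure D2:**
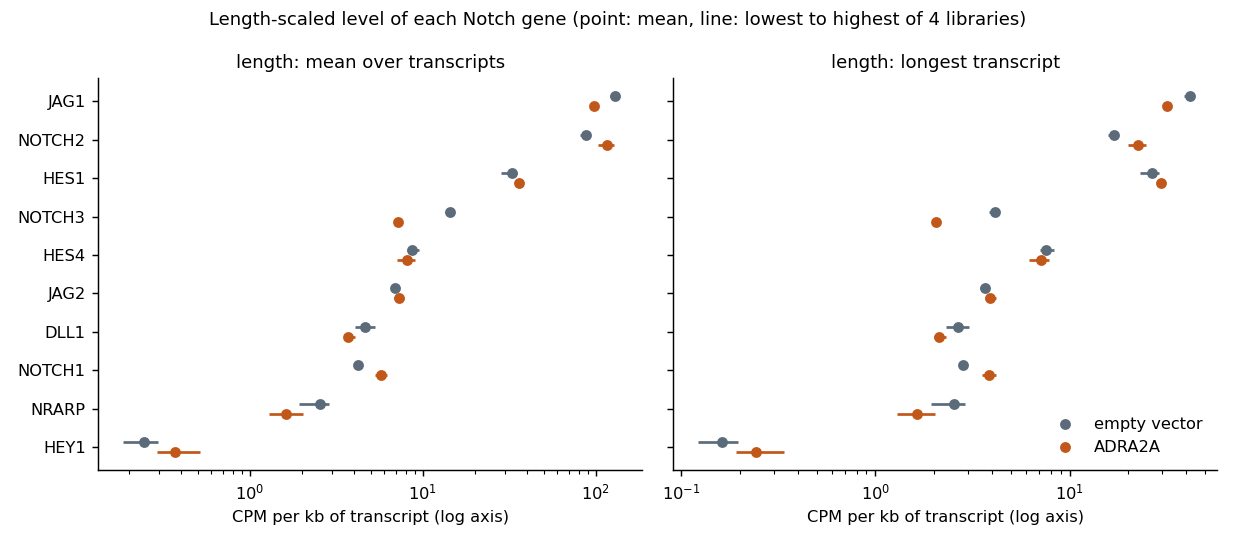
Length-scaled level (CPM per kb of transcript, log axis) of each Notch gene in the empty-vector and ADRA2A libraries, with the mean as a point and the lowest to highest library as a line. The left panel uses the mean transcript length and the right panel the longest transcript, and JAG1, NOTCH2 and HES1 lead in both while HEY1 is lowest.

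Across all 10 genes on the scale with the mean transcript length, the empty-vector order was JAG1 at 130 ± 6.03, NOTCH2 at 87.4 ± 4.21 and HES1 at 32.6 ± 3.04 CPM per kb (SD, n = 4 each). NOTCH3 followed at 14.3, HES4 at 8.65, JAG2 at 6.87, DLL1 at 4.65, NOTCH1 at 4.21, NRARP at 2.55 and HEY1 at 0.246 CPM per kb. Only DLL1 and NOTCH1 were neighbours whose libraries overlapped, with DLL1 between 4.05 and 5.30 and NOTCH1 between 4.00 and 4.30 CPM per kb. In the ADRA2A cells NOTCH2 stood first at 116 ± 11.6 CPM per kb and JAG1 second at 98.3 ± 1.67 (SD, n = 4 each), and NOTCH3 moved from rank 4 to rank 6. There HES4, JAG2 and NOTCH3 overlapped, at 7.09 to 8.96, 6.84 to 7.80 and 6.90 to 7.43 CPM per kb. With the longest transcript, JAG1 stayed first in both groups and HES1 took the second place. The first place of NOTCH2 in the ADRA2A cells thus held only with the mean length. For JAG1 and NOTCH2 that length was 1919 and 2219 bases, against main transcripts of 5940 and 11425 bases.

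JAG1, a Serrate-type ligand and the most abundant of the 3 ligands, fell. JAG1 (chr20:10637684-10673999, minus strand, 26 exons) was at 255, 231, 256 and 252 CPM in the empty-vector replicates and at 189, 193, 185 and 188 CPM in the ADRA2A replicates. The 4 ADRA2A libraries lay close together and below all empty-vector libraries. Its mean of 249 ± 11.6 CPM in the empty-vector cells became 189 ± 3.21 CPM (SD, n = 4 each), which is 1.32-fold lower (log2 fold change -0.40 ± 0.04, SE; edgeR adjusted p = 5.05e-08). Its chromosomal neighbours were lower too. Of the 20 nearest tested genes, 10 on each side, 14 were lower and 0 higher at an adjusted p-value under 0.05, and their median log2 fold change was -0.36. JAG1 stood 0.04 (log2) below that median. Whether the drop belongs to the gene or to the stretch of chromosome 20 was not tested.

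DLL1, a Delta-type ligand that activates the same receptors, was at 10.7, 11.5, 8.77 and 9.29 CPM in the empty-vector replicates and at 7.61, 8.12, 8.76 and 7.72 CPM in the ADRA2A replicates. The groups touched without overlapping, since empty-vector replicate 3 and ADRA2A replicate 3 were almost level. DLL1 (chr6:170282206-170306565, minus strand, 11 exons) fell by 0.32 on the log2 scale (SE 0.11; edgeR adjusted p = 0.0257). This call was lost in 4 of the 8 fits that each left out 1 library, with edgeR adjusted p-values of 0.0708 and 0.0903 without empty-vector replicates 1 and 2, and 0.0683 and 0.0599 without ADRA2A replicates 1 and 4. DLL1 overlaps FAM120B on the opposite strand over 15863 bases. FAM120B held 697 to 919 counts per library, had a log2 fold change of 0.12 (edgeR adjusted p = 0.0729), and its reads cannot be told from those of DLL1 in the overlap if strand was not used in counting.

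JAG2, the second Serrate-type ligand, was at 22.3, 22.1, 20.0 and 20.2 CPM in the empty-vector replicates and at 22.1, 23.1, 21.1 and 24 CPM in the ADRA2A replicates, and the groups overlapped. JAG2 (chr14:105140982-105168824, minus strand, 26 exons) had a log2 fold change of 0.09, with a 95% interval from -0.06 to 0.24 (edgeR adjusted p = 0.312). No difference was detectable, and the interval leaves room for a rise of up to 0.24.

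**Figure D3:**
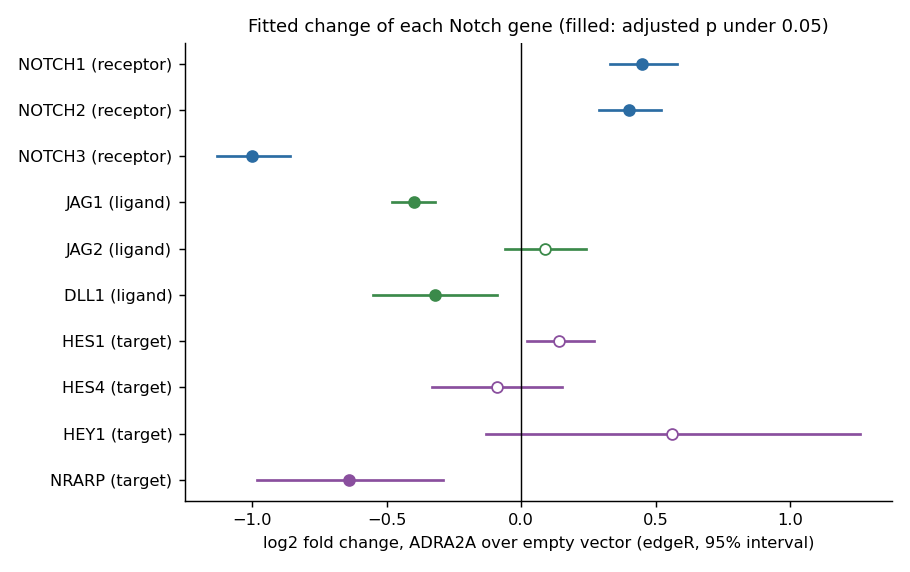
Fitted log2 fold change of each Notch gene (ADRA2A over empty vector, horizontal axis) with its 95% interval, filled where the adjusted p-value was under 0.05. NOTCH1 and NOTCH2 lie right of 0, NOTCH3, JAG1, DLL1 and NRARP lie left of it, and the widest interval belongs to HEY1, from -0.13 to 1.26.

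The 4 targets are usual readouts of receptor cleavage. Their promoters are shown as far as RefSeq's table held them, since RBPJ is known to bind a core written TGGGAA. Entries were found for 8 of the 10 genes, all but DLL1 and HEY1, so the target HEY1 was not searched. RefSeq's start was the outermost GENCODE start for 5 of them, and lay 75 bases inside the annotated gene for HES4, 48 for JAG2 and 31117 for NOTCH2. In the 250 bases before each RefSeq start, TGGGAA on either strand was found in HES1 and HES4 and in none of the other 6 of those 8, NRARP included. Of 35116 promoters in the table, 20.8% held TGGGAA and 5.43% the longer GTGGGAA, which contains it. HES1 had 2 matches, 84 to 79 and 70 to 65 bases before the start, the first within GTGGGAA, and HES4 had 1, at 76 to 71 bases, also within GTGGGAA. A match is a stretch of letters and not a measured binding site. The sequences of HES1, HES4 and NRARP follow (RefSeq, GRCh38.p14, read 5′ to 3′ along the gene's strand, with TGGGAA in capitals). They are the target with 2 matches, both on the gene's strand, the target with 1 match, and the target that fell.
HES1, chr3:194135898-194136147, plus strand: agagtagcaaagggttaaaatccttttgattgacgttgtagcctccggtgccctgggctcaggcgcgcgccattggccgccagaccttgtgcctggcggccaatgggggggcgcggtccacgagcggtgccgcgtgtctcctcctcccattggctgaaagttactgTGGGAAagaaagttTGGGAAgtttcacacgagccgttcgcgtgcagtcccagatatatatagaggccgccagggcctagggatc
HES4, chr1:1000098-1000347, minus strand: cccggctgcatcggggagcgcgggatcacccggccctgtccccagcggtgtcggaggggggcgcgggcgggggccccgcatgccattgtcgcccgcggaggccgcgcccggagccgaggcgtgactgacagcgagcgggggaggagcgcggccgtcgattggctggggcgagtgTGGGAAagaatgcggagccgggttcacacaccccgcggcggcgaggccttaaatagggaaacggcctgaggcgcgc
NRARP, chr9:137302272-137302521, minus strand: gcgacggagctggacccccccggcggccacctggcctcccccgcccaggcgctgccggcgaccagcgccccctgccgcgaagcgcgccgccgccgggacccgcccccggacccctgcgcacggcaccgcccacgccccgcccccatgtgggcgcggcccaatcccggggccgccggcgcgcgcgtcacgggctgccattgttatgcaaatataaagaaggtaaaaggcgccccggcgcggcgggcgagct

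HES1, a repressor that is among the most direct Notch targets and keeps progenitors undifferentiated, was at 36.5, 44, 45.4 and 42.3 CPM in the empty-vector replicates. In the ADRA2A replicates HES1 was at 44.4, 47.9, 47.2 and 46.3 CPM. ADRA2A replicates 2, 3 and 4 lay above all empty-vector libraries, and only ADRA2A replicate 1, below empty-vector replicate 3, kept the groups from separating. HES1 (chr3:194136148-194138732, plus strand, 4 exons) did not pass, at 0.14 ± 0.06 (SE) on the log2 scale (edgeR adjusted p = 0.0665). Without empty-vector replicate 3 HES1 passed, at a log2 fold change of 0.19 (edgeR adjusted p = 0.0279), and without empty-vector replicate 1, its lowest library, the value was 0.08 (edgeR adjusted p = 0.284). The median of its 20 nearest tested genes was 0.19, with 9 called higher and 0 lower, so HES1 stood 0.04 (log2) below its neighbours.

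HES4, a close relative of HES1 that mice lack, was at 8.67, 7.60, 7.78 and 7.33 CPM in the empty-vector replicates and at 6.44, 7.72, 8.13 and 7.21 CPM in the ADRA2A replicates. The groups overlapped between 7.33 and 8.13 CPM. HES4 (chr1:998962-1000172, minus strand, 4 exons) had a log2 fold change of -0.09, with a 95% interval from -0.33 to 0.15 (edgeR adjusted p = 0.570). Neither HES1 nor HES4, which both hold the promoter match, passed the test. Any link between the match and expression was not tested.

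NRARP, an ankyrin-repeat protein that Notch induces and that damps the nuclear Notch complex, fell. It was at 5.09, 7.60, 7.26 and 6.94 CPM in the empty-vector replicates and at 4.64, 3.76, 5.38 and 3.42 CPM in the ADRA2A replicates. The groups overlapped only through empty-vector replicate 1, which was below ADRA2A replicate 3. The log2 fold change of NRARP (chr9:137299631-137302271, minus strand, 1 exon) was -0.64 ± 0.17 (SE), a 1.55-fold lower level, from 54 to 125 counts per library (edgeR adjusted p = 0.00401). NRARP and NOTCH1 lie on the same end of chromosome 9 and changed in opposite directions, and the 20 nearest tested genes of each had a median of -0.05.

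HEY1, a repressor of the HEY branch that is known from vessels and heart, was barely expressed. It had 11, 7, 13 and 10 counts in the empty-vector libraries and 13, 20, 13 and 13 in the ADRA2A libraries, with overlap between the groups. HEY1 had a fitted log2 fold change of 0.56, with a 95% interval from -0.13 to 1.26 (edgeR adjusted p = 0.187). With so few counts the interval is the widest of the 10 genes.

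Whether 2 genes of one role changed differently was tested on their log2 ratio in each library, over 12 pairs. In 6 pairs the ratio was fully separated between the groups, which gave the smallest two-sided p that 4 against 4 allows in an exact permutation test, 0.0286, and 0.0571 after adjustment over the 12 pairs. With 6 pairs at that limit, none of the 12 could be under 0.05 after adjustment, however large its shift. The largest shifts were those of NOTCH1 and NOTCH2 against NOTCH3. The log2 ratio of NOTCH1 to NOTCH3 went from -0.35 ± 0.08 to 1.08 ± 0.13, and that of NOTCH2 to NOTCH3 from 2.44 ± 0.12 to 3.83 ± 0.15 (SD, n = 4 each). The ratio of NOTCH1 to NOTCH2 moved by 0.05 (exact permutation p = 0.600). Among the ligands, the log2 ratio of JAG1 to JAG2 went from 3.55 ± 0.13 to 3.06 ± 0.07, and that of JAG2 to DLL1 from 1.07 ± 0.10 to 1.47 ± 0.16 (SD, n = 4 each). Among the targets, the log2 ratio of HES1 to NRARP went from 2.63 ± 0.13 to 3.42 ± 0.30 and that of HEY1 to NRARP from -3.17 ± 0.38 to -2.05 ± 0.52 (SD, n = 4 each). The ratio of HES1 to HES4 moved by 0.24 without separating the groups (exact permutation p = 0.0571).

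The remaining pathway was followed through 7 lists with 75 genes, of which 57 were tested. Of the 57, 25 rose and 11 fell with the transgene, together 63.2%, against 42.7% of all genes tested (21.6% higher and 21.1% lower), and their median log2 fold change was 0.13 against 0.00 for all. The same shares are the background for the counts of each list. Among the other receptors and ligands, 4 of 8 genes were tested. NOTCH4, the endothelial receptor, fell from 1.92 ± 0.198 to 1.11 ± 0.263 CPM (SD, n = 4 each; log2 fold change -0.78, edgeR adjusted p = 0.0215). DNER, a noncanonical ligand known from neurons, fell by 0.87 on the log2 scale (edgeR adjusted p = 0.0209), and EGFL7, a secreted Notch modulator, rose by 0.61 (edgeR adjusted p = 0.0101). All 3 were expressed at low levels. DLL3 did not pass, and DLL4, DLK1, DLK2 and MFAP5 were below the filter.

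Of 8 tested genes that add sugars to Notch receptors and ligands, 3 were higher and 2 lower, or 62.5% against 42.7% of all genes tested. LFNG, the lunatic fringe enzyme that extends O-fucose on the receptor and biases it between Delta and Jagged ligands, was at 12.1, 15.3, 13.2 and 9.10 CPM in the empty-vector replicates and at 6.51, 6.40, 7.16 and 6.96 CPM in the ADRA2A replicates. All ADRA2A libraries were below all empty-vector libraries. LFNG fell by 0.87 on the log2 scale (SE 0.13; edgeR adjusted p = 2.18e-05). The other fringe genes MFNG and RFNG did not pass, with log2 fold changes of -0.22 and -0.02. POFUT1, which places the O-fucose, fell by 0.15 and GXYLT1, a xylosyltransferase, rose by 0.24.

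The receptor cleavage list had 6 of 9 genes higher and 0 lower, against 21.6% and 21.1% of all genes tested. Its median log2 fold change was 0.22. NCSTN, the nicastrin subunit of gamma-secretase, rose most, from 128 ± 3.10 to 176 ± 5.07 CPM (SD, n = 4 each; log2 fold change 0.46 ± 0.04, SE; edgeR adjusted p = 4.82e-09). PSEN2, a catalytic subunit, rose by 0.27, APH1A by 0.14, and the shedding proteases ADAM10 and ADAM17 by 0.22 each. The rise of NCSTN was 1.38-fold, and those of APH1A and PSEN2 were 1.10-fold and 1.21-fold. FURIN, APH1B and the small subunit PSENEN did not pass, with log2 fold changes of 0.05, 0.25 and -0.07.

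Of 12 tested genes of ligand endocytosis and receptor trafficking, 4 were higher and 3 lower, or 58.3% against 42.7% of all genes tested. MIB1, the ubiquitin ligase that lets ligands pull on receptors, fell by 0.28 (edgeR adjusted p = 7.91e-05), and its relative MIB2 rose by 0.46 (edgeR adjusted p = 2.35e-04). DTX4, a Deltex ligase, rose from 37.0 ± 2.11 to 57.1 ± 2.84 CPM (SD, n = 4 each; log2 fold change 0.63, edgeR adjusted p = 1.89e-08). NUMB, which opposes Notch at the membrane, rose by 0.25 (edgeR adjusted p = 6.48e-05), whereas the ubiquitin ligases ITCH and NEDD4 fell by 0.23 and 0.26.

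Of 20 tested genes of the nuclear complex and its corepressors, 10 were higher and 2 lower, against 21.6% and 21.1% of all genes tested. RBPJ itself was one of the 2 that fell, at 127, 122, 120 and 127 CPM in the empty-vector replicates and at 98.3, 102, 97.9 and 108 CPM in the ADRA2A replicates. Its groups did not overlap (log2 fold change -0.29 ± 0.04, SE; edgeR adjusted p = 1.57e-05). HDAC2 was the other. TLE2, a Groucho corepressor, rose 2.24-fold at low abundance, from 1.55 ± 0.178 to 3.46 ± 0.638 CPM (SD, n = 4 each; edgeR adjusted p = 2.13e-04), and HDAC1 rose by 0.20 on the log2 scale. The Mastermind genes MAML2 and MAML3 rose by 0.13 and 0.23, and MAML1 at 0.10 did not pass.

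**Figure D4:**
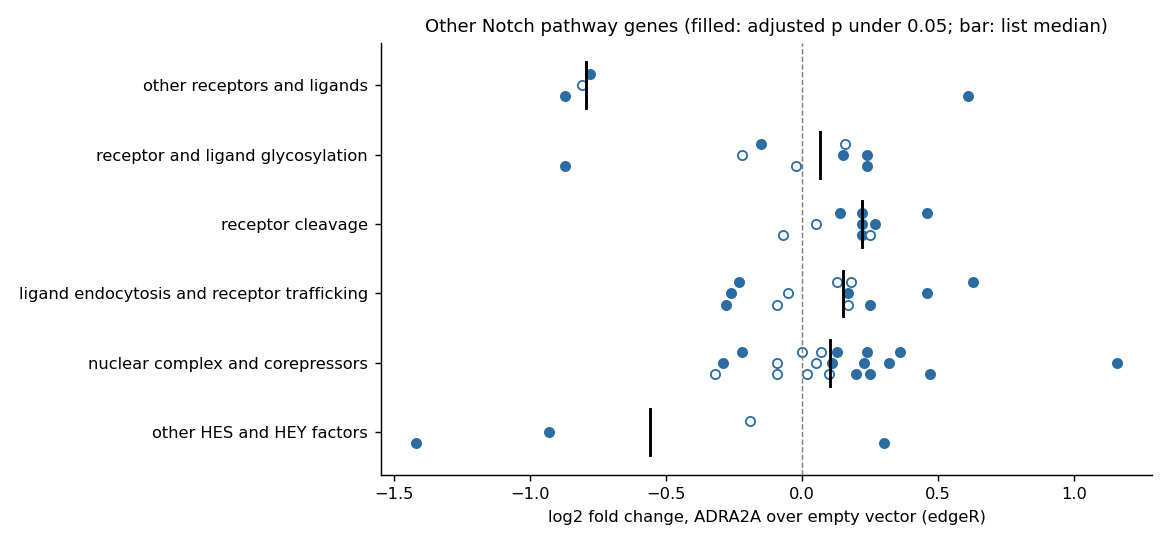
Log2 fold change (ADRA2A over empty vector, horizontal axis) of the 57 tested genes of the other Notch pathway lists, 1 point per gene, filled where the adjusted p-value was under 0.05, with a bar at each list's median. The receptor cleavage genes sit around 0.22 with none called lower, and BHLHE41, at -1.42, is the lowest point.

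Of the other HES and HEY genes 4 of 10 were tested. HES2 fell from 8.22 ± 1.07 to 4.30 ± 0.905 CPM (SD, n = 4 each; log2 fold change -0.93, edgeR adjusted p = 6.18e-05). The related BHLHE41 fell by 1.42 and BHLHE40 rose by 0.30, both known also as clock-linked repressors. HES6 did not pass, and HES3, HES5, HES7, HEY2, HEYL and HELT were below the filter. NEUROG3, ATOH1, PTF1A and NEUROD1, differentiation factors that HES1 is known to repress, had 0 counts in all 8 libraries, so no change in them could be seen in either direction.

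**Figure D5:**
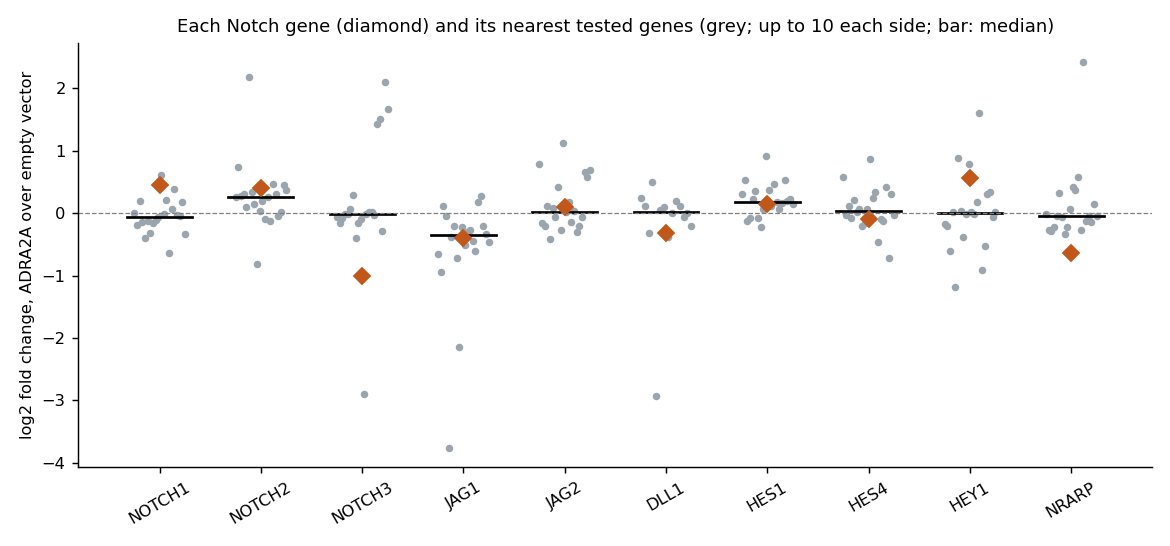
Log2 fold change (ADRA2A over empty vector, vertical axis) of each Notch gene (diamond) and of its nearest tested genes, up to 10 on each side (grey points, bar at their median). JAG1 and HES1 sit within 0.04 of their neighbours' median, whereas NOTCH3 lies 0.99 below and NOTCH1 0.50 above theirs.

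The setting of each gene on its chromosome differed. The neighbours of NOTCH2, which span 26.8 Mb across the centromere, had a median log2 fold change of 0.25, and NOTCH2 stood 0.15 above it. NOTCH3 stood 0.99 below neighbours with a median of -0.01, NOTCH1 stood 0.50 above and NRARP 0.59 below neighbours with a median of -0.05, and DLL1, close to a chromosome end with 14 neighbours, stood 0.34 below a median of 0.03. The called changes of JAG1 and NOTCH2 thus lay within 0.15 (log2) of their neighbours' median, and those of NOTCH1, NOTCH3, NRARP and DLL1 lay at least 0.34 from theirs. The part of chromosome-wide shifts in these values was not tested.

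The genes with the profile most like that of NOTCH1 over the 8 libraries, by the root mean square difference of centred log2 levels among 10159 genes of at least 10 CPM, were GBP3 at 0.047, MIB2 at 0.049 and NUDT16 at 0.049. Those most like NOTCH3 were SLC34A2 at 0.070, KRT86 at 0.070 and CCBE1 at 0.071. SLC34A2, a phosphate transporter gene, went from 24.5 ± 2.03 to 12.3 ± 1.17 CPM, KRT86, a hair keratin gene, from 31.2 ± 2.60 to 15.0 ± 0.417 CPM, and CCBE1, a secreted calcium-binding protein gene, from 164 ± 6.69 to 81.1 ± 2.28 CPM (SD, n = 4 each). Because the step between the groups is part of the centred levels, this measure picks genes with a like fold change. Of these 6 genes, MIB2 was also in the pathway lists. Whether any of them is regulated together with NOTCH1 or NOTCH3 was not tested.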

How the data were processed

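Per the labels, RNA of the 8 samples was read on a NextSeq instrument. The deposited table held RSEM estimated counts per gene, not scaled between samples. The submitters' processing notes name cutadapt, STAR, RSEM, DESeq2 and the build hg38. The annotation release, strand setting and read length were not given in the sources used here. All 8 value columns were matched to samples by their titles, with 0 left over.

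The estimated counts were rounded and filtered with filterByExpr, and 14785 genes were tested with edgeR 4.0.16 (TMM factors, quasi-likelihood test, group as the only term). P-values were adjusted by the Benjamini-Hochberg method over all genes tested, with a threshold of 0.05. A SE is the absolute log2 fold change over the square root of F. Ratios used log2 CPM with a prior count of 2. Positions, exons and lengths are from GENCODE 44 (GRCh38), where 99.4% of identifiers matched. Named genes were the 10 genes, the up to 3 smallest p-values of each pathway list, and the 3 most similar profiles of the highest and the lowest called gene. Others were named after their values were seen. Some genes of these lists are not reported here. The genes and lists were chosen with earlier results of these data known. Alternatives were DESeq2 1.42.0, limma 3.58.1 voom, RLE and upper quartile factors, 2 other filters, a replicate block, and fits without 1 library. The NOTCH2 sum, the long-transcript medians and the receptor shares by longest transcript were added after seeing the data.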

Additional observations from a re-analysis of the deposited data

Results flagged for a closer look

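NOTCH1 in empty-vector replicate 3 was at 26.5 CPM, apart from the other 3 empty-vector libraries, which lay between 28.2 and 28.5 CPM. The gap took up 0.876 of the group's range. Over the 21 groups of 4 examined, chance alone gives about 1 such case in 20 groups. Without that library the log2 fold change of NOTCH1 was 0.43 (edgeR adjusted p = 3.32e-05).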

How the results depend on the processing

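Over 15 alternative fits the number of genes called was between 5703 and 6550, and between 5 and 7 of the 10 Notch genes were called, against 6. NOTCH1, NOTCH2, NOTCH3, JAG1 and NRARP were called in all 15 with the same sign, JAG2 and HES4 in none of 15 and HEY1 in none of the 14 that could test it. Only DLL1 and HES1 changed sides. The other pathway genes called were between 31 and 37, against 36. Replicate numbers are shared by the groups, but same-numbered libraries did not deviate together (correlations between -0.042 and 0.07), so the numbers were not taken as pairs. With the number as a replicate block 6400 genes were called and HES1 passed (edgeR adjusted p = 0.0375). A prior count of 0.5 left 0 of the 12 pairs under 0.05 after adjustment. Scaling factors cancel in a ratio of 2 genes of one library, so RLE and upper quartile factors test nothing there. Leaving out 1 library, or flipping signs over same-numbered differences, cannot give a p below 0.0571 or 0.125 in these exact tests, so they give only values. With low counts, depth limits HEY1 most.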
